A study of Danio rerio with 18 samples.

Results

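The genes slc2a11b (ENSDARG00000063288), slc2a15a (ENSDARG00000029894), slc2a15b (ENSDARG00000053269) and slc22a7a (ENSDARG00000056028) encode solute carriers of zebrafish. They were taken as 4 named gene IDs out of the 28298 in the deposited count table. All 4 passed the filter on low counts that left 23767 genes for testing. They were selected on measured values of these libraries, namely their high level in GFP-positive libraries at 48 and 72 hours post fertilization (hpf). That level, its contrast with GFP-negative libraries and its contrast with 24 hpf are therefore given as descriptions with no test.

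Xanthophores are the yellow pigment cells of fish. They arise from the neural crest and hold pteridines, which are made from GTP, and carotenoids, which are taken up from food or yolk and stored with lipid. SLC2 proteins are facilitative transporters of sugars and related molecules across membranes, and SLC22 proteins carry organic anions and cations. In medaka, mutations in slc2a15b and slc2a11b disturb leucophores and xanthophores. The human relative of slc22a7a, SLC22A7, is an organic anion transporter of liver and kidney. The zebrafish substrates of these proteins are not part of these data.

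The series concerns cardiomyocytes during heart development and measured RNA from embryo cells separated by flow cytometry into GFP-positive and GFP-negative fractions. There were 18 libraries from 6 conditions, each with 2 GFP-positive libraries and 1 GFP-negative library. The conditions were wild-type embryos at 24, 48 and 72 hpf, and embryos of gata5, tbx5 or hand2 genetic background at 72 hpf. The labels give the gene of a background without the allele, do not name the reporter behind GFP, and do not say whether replicates came from separate pools of embryos, so p-values measure only the spread between libraries, which may be technical.

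Library totals ran from 12070094 to 32141901 counts in the GFP-positive libraries and from 5705157 to 18863332 in the GFP-negative ones. Levels below are CPM, counts scaled to a common library total with TMM factors. They are not divided by gene length, so levels are compared between libraries and not between genes. Genes of cardiomyocytes, the cells the title names, were present. The summed level of 7 gene IDs was 80.4 to 2153 CPM in the 10 GFP-positive libraries at 48 and 72 hpf. It was 37.3 to 132 CPM in the 6 GFP-negative libraries. These ranges overlapped through the second gata5 library, at 80.4 CPM, and the 24 hpf GFP-negative library, at 132 CPM. Most of the GFP-negative sum was actc1a, with a mean of 67.4 CPM there. For myh6, TNNT2 (ENSDARG00000020610), nppa and cmlc1 all 10 GFP-positive libraries lay above all 6 GFP-negative ones, as for 4.21% of all genes. For MYL7, actc1a and the other TNNT2 ID they did not. A list of 6 xanthophore gene IDs held gch2, aox5, XDH, csf1ra and both PAX7 IDs. It summed to 8649 to 30779 CPM in the same 10 libraries and to 83.9 to 287 CPM in the GFP-negative ones, with no overlap. Such separation was not particular to that list. The melanophore sum was 478 to 1606 against 32.2 to 311 CPM, and the iridophore sum 167 to 410 against 38.9 to 78.9 CPM. The macrophage sum was 331 to 3698 against 103 to 242 CPM. Neural crest, hepatocyte and kidney tubule sums overlapped. Fewer cells of a type and less RNA per cell cannot be told apart in such bulk samples. The xanthophore in the working name of this group of transporters rests on the 6 accompanying xanthophore gene IDs, since no single cells were measured.

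The 3 SLC2 transporters shared a profile. Each was low in both fractions at 24 hpf, reached its highest level in GFP-positive cells at 48 hpf, and was lower but still high in every GFP-positive library at 72 hpf. In GFP-negative cells they were lower at 48 and 72 hpf than at 24 hpf.

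For slc2a11b, whose medaka counterpart acts in pigment cells, the 24 hpf GFP-positive pair read 35.3 and 16.2 CPM. The 48 hpf pair read 2988 and 2889 CPM, and the wild-type pair of 72 hpf read 1400.1 and 726 CPM. The single GFP-negative libraries of those stages read 25.4, 3.24 and 2.52 CPM. Thus both GFP-positive libraries lay far above the GFP-negative library at 48 and 72 hpf, while at 24 hpf the GFP-negative value lay between them. Of the other backgrounds, the gata5 pair read 737 and 1813 CPM, the tbx5 pair 1183 and 1768 CPM, and the hand2 pair 1317 and 1354 CPM. The matching GFP-negative values were 7.06, 2.76 and 1.15 CPM. All 4 genotypes overlapped at 72 hpf, and the gata5 pair was the most spread, with a ratio of 2.46 between its libraries.

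For slc2a15a, named as a relative of slc2a15b, the 24 hpf GFP-positive pair read 8.69 and 11.1 CPM. The 48 hpf pair read 1623 and 1662 CPM, and the wild-type pair of 72 hpf read 610.2 and 377 CPM. The GFP-negative libraries read 14.8, 0.858 and 0.265 CPM at these stages, the last from 2 counts. Here the 24 hpf GFP-negative library was above both GFP-positive ones, and the order was opposite at the later stages. The gata5 libraries read 465 and 949 CPM, the tbx5 libraries 546 and 926 CPM, and the hand2 libraries 650.0 and 827 CPM. Their GFP-negative libraries read 0.120 CPM from 1 count, 1.31 CPM and 2.51 CPM. Both hand2 libraries lay above both wild-type libraries of that stage, and the other genotypes overlapped wild type.

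For slc2a15b, the gene altered in the medaka leucophore free mutant, the 24 hpf GFP-positive pair read 54.7 and 8.47 CPM. The 48 hpf pair read 1736 and 1554 CPM, and the wild-type pair of 72 hpf read 864 and 439 CPM. The GFP-negative libraries read 32.3, 1.24 and 3.18 CPM. At 24 hpf the libraries of the GFP-positive pair differed by a ratio of 6.46, the widest replicate gap of the 4 genes. The gata5 pair read 509 and 1367 CPM, the tbx5 pair 662 and 1167 CPM, and the hand2 pair 719.5 and 774 CPM, with GFP-negative values of 4.19, 3.27 and 2.61 CPM. These genotypes all overlapped one another and wild type.

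Unlike the SLC2 genes, the organic ion transporter gene slc22a7a was not highest in the 48 hpf libraries. Its GFP-positive pairs read 4.42 and 3.98 CPM for 24 hpf, 3880.1 and 3867 CPM for 48 hpf, and 2912 and 1867 CPM for wild type of 72 hpf. The GFP-negative libraries read 17.7, 4.39 and 0.132 CPM, the last from 1 count. At 24 hpf it was thus lower in both GFP-positive libraries than in the GFP-negative one. The gata5 pair read 2922 and 5046 CPM, the tbx5 pair 2490.2 and 4029.6 CPM, and the hand2 pair 2509.6 and 3087 CPM, with GFP-negative values of 2.39, 4.16 and 4.81 CPM. Both 48 hpf libraries lay above both wild-type libraries of 72 hpf, as for the SLC2 genes and 20.2% of all genes. They did not lie above all libraries of 72 hpf, and the highest single value was a gata5 library. The difference from the SLC2 genes was not tested.

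**Figure D1:**
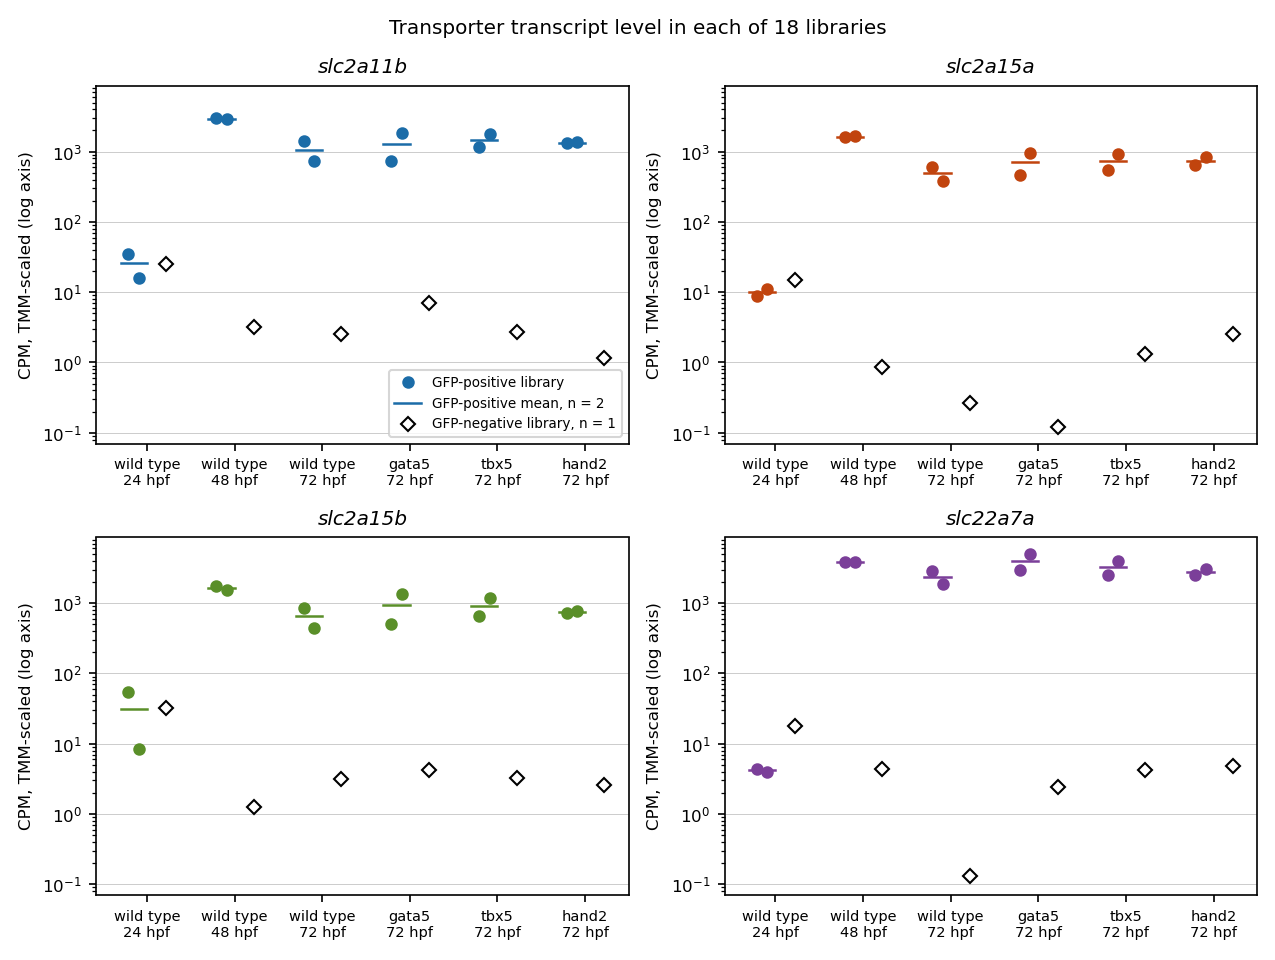
Level of each transporter gene in all 18 libraries, in TMM-scaled CPM on a log axis, with filled points for GFP-positive libraries, a line for the mean of each pair and open diamonds for the single GFP-negative library. At 24 hpf both fractions were at most 54.7 CPM for all 4 genes, and in the other 5 conditions both filled points lay above the diamond.

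From 24 to 48 hpf the mean GFP-positive level was 114-fold higher for slc2a11b, 166-fold for slc2a15a, 52.1-fold for slc2a15b and 923-fold for slc22a7a. These sizes rested on the 24 hpf libraries for slc2a15b, which was 194-fold higher without the first of them and 30.1-fold without the second, and for slc2a11b, at 182-fold and 83.3-fold. Both 48 hpf libraries lay above both 24 hpf libraries for all 4 genes, as they did for 27.9% of all 28298 genes. In the GFP-negative fraction, with 1 library per stage and so no replicate check, the 48 hpf level was lower by a ratio of 7.82 for slc2a11b (95% counting interval 5.43 to 11.6). It was lower by a ratio of 17.3 for slc2a15a (8.79 to 38.6), 26.0 for slc2a15b (14.97 to 49.5) and 4.04 for slc22a7a (2.88 to 5.76). The xanthophore list moved with the transporters, from 150 to 361 CPM in the 24 hpf GFP-positive libraries to 29585 and 30779 CPM at 48 hpf, and the part of cell number in the change was not tested.

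The GFP-positive to GFP-negative ratio of means at 24 hpf was 1.01 for slc2a11b, 0.670 for slc2a15a, 0.978 for slc2a15b and 0.237 for slc22a7a. In the other 5 conditions it ran from 181 to 1162 for slc2a11b and from 205 to 1327 for slc2a15b. For slc2a15a it was 1913 in wild type at 48 hpf, 563 in tbx5 and 295 in hand2. Against the 2 counts of the wild-type 72 hpf GFP-negative library the slc2a15a count ratio was 1781 (95% counting interval 493 to 14703), and against the 1 count in gata5 it was 5777 (1037 to 228176). The slc22a7a ratio in 48 hpf wild type was 883, and those of the gata5, tbx5 and hand2 backgrounds were 1664, 784 and 582. Against the 1 count in wild type at 72 hpf its count ratio was 17298 (3105 to 683244). These intervals cover counting error only. All 10 GFP-positive libraries at 48 and 72 hpf lay above all 6 GFP-negative libraries for each of the 4 genes, a pattern that 4.21% of all genes showed and that was known when these genes were picked.

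Ordered by mean level, the GFP-positive groups ran 48 hpf wild type, then the 72 hpf groups, then 24 hpf for each SLC2 gene. The step from 48 hpf to the next group had no overlap, the neighbours among the 72 hpf groups overlapped, and the step down to 24 hpf had no overlap. Both 48 hpf libraries exceeded all 8 libraries of 72 hpf for slc2a11b, slc2a15a and slc2a15b, as they did for 4.74% of all genes. For slc22a7a the order was gata5, 48 hpf wild type, tbx5, hand2, 72 hpf wild type and 24 hpf. Every neighbouring pair overlapped except the last. The share of all genes without overlap between 72 hpf wild type and 24 hpf was not counted, for slc22a7a or the SLC2 genes.

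The comparison of 72 with 48 hpf in wild-type GFP-positive cells asked how levels changed late in heart development. None of the 4 genes passed edgeR's quasi-likelihood test at an adjusted p under 0.05, where 0.488% of all tested genes did. At an unadjusted p under 0.05 there were 2 of the 4, slc2a11b and slc2a15a, against 11.4% of all tested genes. DESeq2 and limma on the regularized-log values each called 1, slc2a15a. Over all genes they called 1315 and 342, against 116 in the edgeR fit. The log2 fold change (72 over 48 hpf, 2 against 2 libraries) of slc2a15a was -1.72 ± 0.38 (SE), with an edgeR adjusted p of 0.0648. That of slc2a11b was -1.45 ± 0.47 with an edgeR adjusted p of 0.241, and that of slc2a15b was -1.32 ± 0.80 with 0.536. The value for slc22a7a was -0.68 ± 0.34, with an edgeR adjusted p of 0.459. Both 72 hpf libraries lay below both 48 hpf libraries for all 4 genes, which held for 20.2% of all genes.

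The slc2a15a call turned on the settings. Without the first wild-type 72 hpf library its log2 fold change was -2.10. Without the filter on low counts slc2a11b, slc2a15a and slc2a15b all passed edgeR's test, with adjusted p of 0.00919, 0.000622 and 0.0197. That fit called 1022 genes in all, against 116 in the main fit. Over the same interval the summed hepatocyte list of 8 gene IDs went from 75.8 and 89.8 CPM to 686 and 886 CPM, with 5 of the 8 (fabp10a, FGB, FGG, serpina1 and tfa) higher by edgeR's test, and the macrophage list of 14 from 331 and 951 CPM to 816 and 1770.5 CPM. The cardiomyocyte list of 7 went from 1777 and 1547 CPM to 898 and 428 CPM, with none passing, and the kidney tubule list of 11 from 396 and 327 CPM to 529.5 and 692 CPM, with 1 higher, SLC20A1 (ENSDARG00000020114; log2 fold change 4.798 ± 0.75, edgeR adjusted p 0.0155). That ID had a mean of 83.5 CPM in GFP-positive cells at 24 hpf, against 1.66 CPM at 48 hpf. The other SLC20A1 ID (ENSDARG00000010641) averaged 240 and 151 CPM at these stages. The part of the cells of these lists in the transporter values was not tested.

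The genotype comparisons asked whether expression at 72 hpf differed in embryos of gata5, tbx5 or hand2 background, genes known as regulators of heart development. None of the 4 genes passed edgeR's test in gata5, tbx5 or hand2 cells against wild type, where 0.105%, 0.0463% and 0.0505% of all tested genes passed. DESeq2 and limma called none either. All 12 log2 fold changes were above 0, but 6 of them turned negative when 1 library was left out. Without the second gata5 library this held for slc2a11b (-0.51), slc2a15a (-0.07) and slc2a15b (-0.34) in gata5. Without the second wild-type library it held for slc2a11b in gata5 (-0.18), and for slc2a11b (-0.09), slc2a15b (-0.24) and slc22a7a (-0.08) in hand2. Since the wild-type libraries entered all of them, they are not independent. The xanthophore list was also higher than in wild type, with median log2 fold changes of 0.72 in gata5, 0.61 in tbx5 and 0.44 in hand2. Over all tested genes the medians were 0, 0.02 and 0.08, and no gene of the list passed. The part of the xanthophore list in the transporter values was not tested.

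In gata5 the log2 fold changes over wild type were 0.26 ± 0.46 (SE) for slc2a11b, 0.52 ± 0.37 for slc2a15a, 0.53 ± 0.79 for slc2a15b and 0.74 ± 0.34 for slc22a7a. The edgeR adjusted p of slc22a7a was 0.506, and its unadjusted p of 0.0439 was the only 1 of the 12 under 0.05, where 9.64%, 8.34% and 9.09% of all tested genes were in gata5, tbx5 and hand2. Both gata5 libraries exceeded both wild-type libraries for slc22a7a, as they did for 14.5% of all genes, but the lower gata5 value of 2922 CPM was close to the higher wild-type value of 2912 CPM. With total-count scaling the slc2a11b value was -0.08, so its sign also depended on scaling.

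In tbx5 the log2 fold changes over wild type were 0.45 ± 0.46 for slc2a11b, 0.56 ± 0.37 for slc2a15a, 0.47 ± 0.79 for slc2a15b and 0.43 ± 0.33 for slc22a7a, with edgeR adjusted p from 0.641 to 0.945. In hand2 they were 0.31 ± 0.46, 0.57 ± 0.37, 0.18 ± 0.78 and 0.21 ± 0.33 in the same order, with edgeR adjusted p from 0.614 to 0.983. Both hand2 libraries were above both wild-type ones for slc2a15a alone, which 24.5% of all genes showed. In tbx5 no transporter had both libraries above both wild-type ones, against 18.1% of all genes.

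Between the 3 backgrounds none of the 4 genes passed edgeR's test, and none had an unadjusted p under 0.05, against 5.32%, 6.02% and 2.74% of all tested genes for gata5 over tbx5, gata5 over hand2 and tbx5 over hand2. The share of all tested genes that passed was 0.0379% for gata5 against tbx5, 0.00842% for gata5 against hand2 and 0.00421% for tbx5 against hand2. The largest of the 12 log2 fold changes was 0.53 ± 0.34 (SE), for slc22a7a in gata5 over hand2, with an edgeR adjusted p of 0.855. With 2 libraries a group these results do not show that levels were alike.

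**Figure D2:**
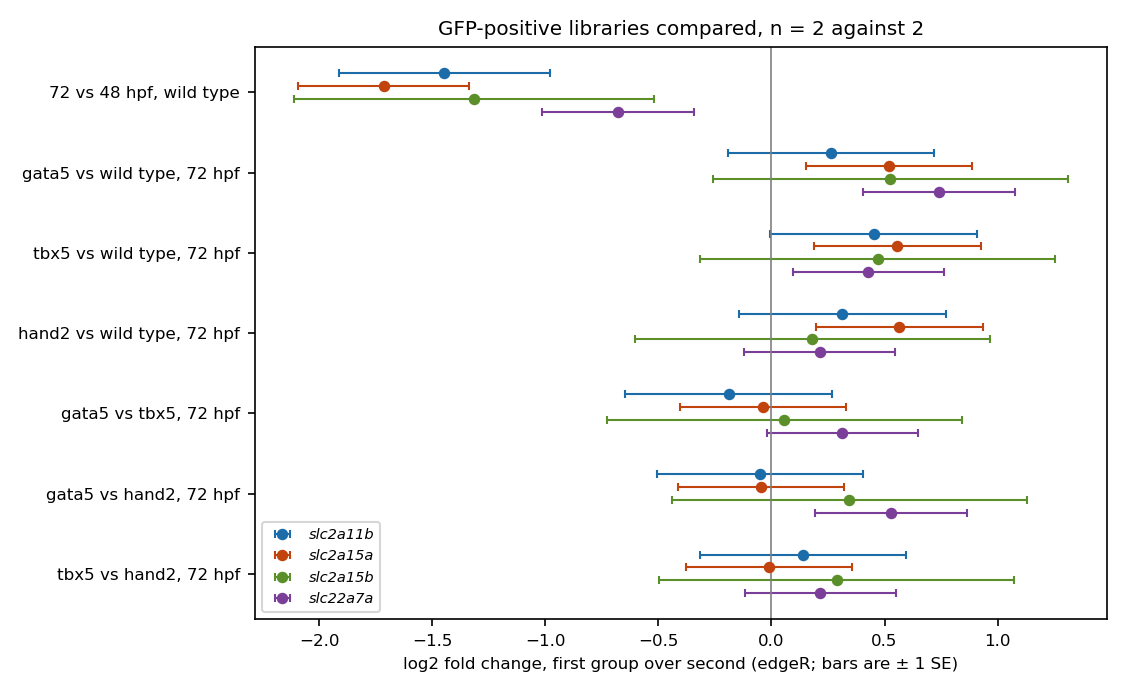
Log2 fold changes of the 4 genes in 7 comparisons of GFP-positive libraries, first group over second, with 2 libraries in each group. Bars are 1 SE, derived from edgeR's F statistic. All 4 points lay below 0 for 72 against 48 hpf, from -0.68 to -1.72, and no point passed an adjusted p of 0.05.

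Levels of the 4 genes varied with the xanthophore list among the 10 GFP-positive libraries at 48 and 72 hpf. The SD of log2 CPM over these libraries was 0.69 for slc2a11b, 0.71 for slc2a15a, 0.68 for slc2a15b and 0.42 for slc22a7a. After division by the summed xanthophore list of the same library the SD of the log2 value was 0.28, 0.25, 0.22 and 0.27 in that order. This is a description over libraries that share a list and a scaling, with no test. Most of the summed list was gch2, with a mean of 12178 CPM where the sum averaged 20110 CPM. Ratios to the list therefore rest largely on gch2. It had its highest group mean at 48 hpf, as did aox5, XDH and PAX7 (ENSDARG00000100398). For csf1ra and PAX7 (ENSDARG00000070818) the highest group mean was in tbx5 at 72 hpf.

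Per 1000 CPM of the xanthophore list, slc2a11b stood at 101 and 93.9 CPM at 48 hpf and at 89.2 and 84.0 CPM in wild type at 72 hpf. The gata5 pair stood at 55.1 and 61.4 CPM, the tbx5 pair at 78.6 and 81.7 CPM, and the hand2 pair at 80.4 and 66.4 CPM. The gata5 pair was below the other 8 libraries. How often other genes separate groups in such ratios was not counted, here or for the other transporters below. An exact two-sided permutation test of 2 against 2 libraries cannot go below p = 0.333, so no group difference in these ratios was tested. For slc2a15a the values were 54.9 and 54.0 CPM at 48 hpf and 32.1 to 43.6 CPM in the 8 libraries of 72 hpf, with no overlap. For slc2a15b they were 58.7 and 50.5 CPM at 48 hpf and 37.9 to 55.1 CPM at 72 hpf, which overlapped. For slc22a7a they were lower at 48 hpf, at 131 and 126 CPM, than in any library of 72 hpf, at 151 to 219 CPM.

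**Figure D3:**
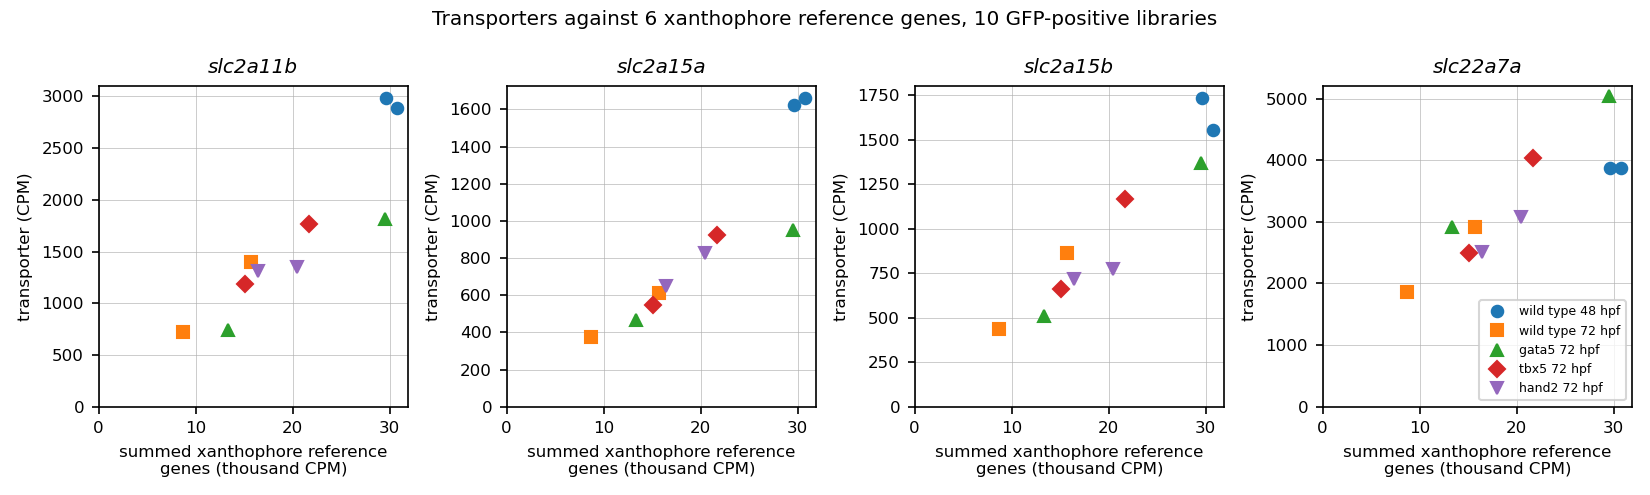
Level of each transporter gene in CPM against the summed CPM of 6 xanthophore gene IDs in the same library, most of it gch2. Points are the 10 GFP-positive libraries at 48 and 72 hpf, with both axes from 0. Transporter levels were generally higher where the xanthophore sum was higher; the 48 hpf libraries sat highest for the SLC2 genes, and a gata5 library at 5046 CPM sat highest for slc22a7a.

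The balance between slc22a7a and the SLC2 genes differed between stages. The ratio of slc22a7a to slc2a11b counts within a library needs no scaling, and its difference between libraries can be read although its size depends on gene length. In wild type the 24 hpf pair gave 0.125 and 0.246, the 48 hpf pair 1.30 and 1.34, and the 72 hpf pair 2.08 and 2.57. The gata5 pair gave 3.97 and 2.78, the tbx5 pair 2.11 and 2.28, and the hand2 pair 1.91 and 2.28. The 3 stages of wild type did not overlap, and the gata5 libraries held the highest values. How often the ratios of other gene pairs separate groups of 2 libraries was not counted, here or for the ratios below.

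The ratio to slc2a15a ran the same way, with 0.508 and 0.357 for the 24 hpf pair, 2.39 and 2.33 for the 48 hpf pair, and 4.77 and 4.95 for the wild-type pair of 72 hpf. The gata5 pair gave 6.29 and 5.32, the tbx5 pair 4.56 and 4.35, and the hand2 pair 3.86 and 3.73. The 4 genotypes did not overlap, whereas in the ratio to slc2a11b wild type, tbx5 and hand2 did. The ratio to slc2a15b was 0.0807 and 0.469 for 24 hpf, 2.24 and 2.49 for 48 hpf, and 3.37 to 5.74 over the 8 libraries of 72 hpf, where the genotypes overlapped.

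**Figure D4:**
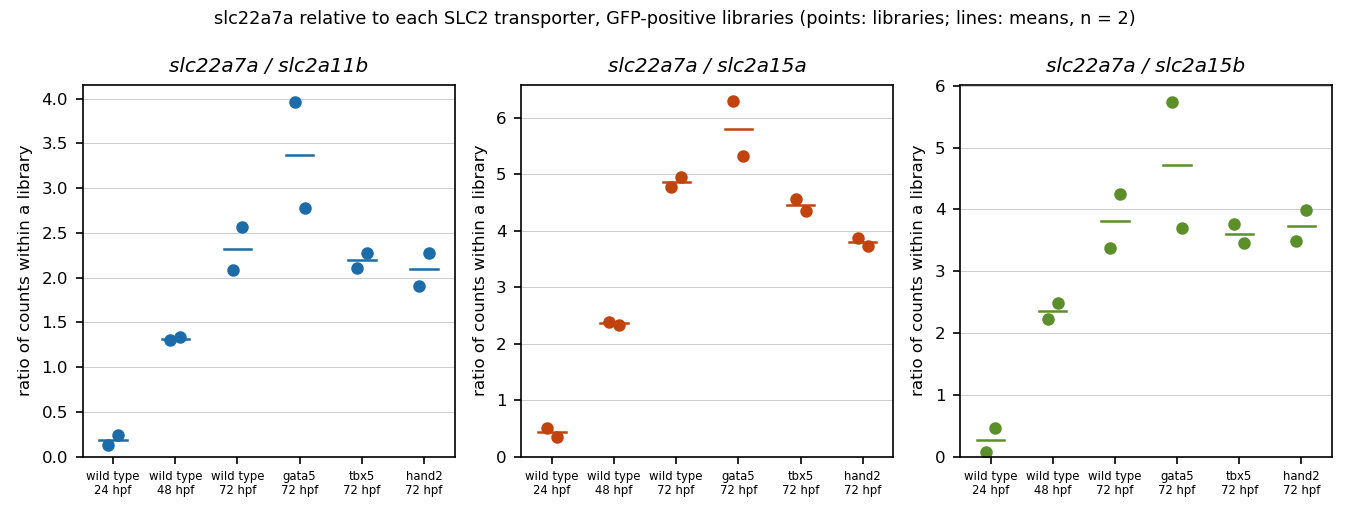
Ratio of slc22a7a counts to the counts of each SLC2 transporter gene within each GFP-positive library, with points for libraries and lines for the means of 2. In all 3 panels the ratios were at most 0.508 at 24 hpf and 1.30 to 2.49 at 48 hpf, and each was higher in every library of 72 hpf than in the 48 hpf pair.

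Genes with the most similar profiles were found by the root mean square difference of centred log2(CPM + 1) over all 18 libraries. Candidates were the 9749 genes with a symbol that averaged at least 10 CPM in the 10 GFP-positive libraries. The closest to slc2a11b were slc2a15b at 0.549, aox5 at 0.599, PTS at 0.643, rasef at 0.668 and slc2a15a at 0.672. PTS makes a pteridine intermediate on the path from GTP, and aox5 encodes an aldehyde oxidase used as a xanthophore marker. For slc2a15a the closest were slc2a11b, tmem130 at 0.677, aox5 at 0.679, PTS at 0.759 and rasef at 0.760.

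For slc2a15b they were PTS at 0.536, slc2a11b, rasef at 0.619, si:dkey-106n21.1 at 0.633 and cax1 at 0.744, the last a cation and proton exchanger. The closest to slc22a7a were plin6, a perilipin of lipid droplets, at 0.727, si:dkey-251i10.2 at 0.753 and BSCL2, which encodes seipin, at 0.857. Next came tmem130 at 0.897, which was also a neighbour of slc2a15a, and gch2, a GTP cyclohydrolase of pteridine synthesis, at 0.997. The SLC2 genes ranked 8 (slc2a15a), 12 (slc2a11b) and 18 (slc2a15b) in likeness to slc22a7a. The libraries share sorting, depth and scaling, and likeness over them is a description. The distance also took in the high level in later GFP-positive libraries on which the transporters were chosen. Candidates had to reach a minimum level in those same libraries. Likeness to other genes high there was thus partly fixed by that choice. Of the neighbours, gch2 and aox5 belong to the xanthophore list behind the working name of the group.

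Other solute carriers with enough counts in the GFP-negative libraries to be ranked had lower ratios. Solute carrier genes were ranked by the mean of the 10 GFP-positive libraries at 48 and 72 hpf over the mean of the 6 GFP-negative libraries, where they averaged at least 10 CPM in the former and had more than 3 counts in the latter. Among these 163 genes the 4 transporters held ranks 1 to 4, with ratios of 582 for slc22a7a, 261 for slc2a15a, 231 for slc2a11b and 126 for slc2a15b. The next was slc23a4 at 41.1. Without the 24 hpf GFP-negative library, an alternative added after seeing the data, the ratios were 1027, 854, 484 and 338 in the same order, again at ranks 1 to 4, with slc23a4 next at 51.2. The ranking used the values that led to the choice of the 4 genes, so their top ranks were partly fixed by it. Solute carriers nearly absent from the GFP-negative libraries were left out by the count minimum, and their number is not given.

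Of the 15 other SLC2 gene IDs, 9 averaged at least 10 CPM in some group, and their ratios ran from 0.198 for slc2a3a, related to a neuronal glucose transporter of mammals, to 13.2 for SLC2A6. All 10 GFP-positive libraries exceeded all 6 GFP-negative libraries for 1 of them, SLC2A13 (ENSDARG00000076899), related to a human myo-inositol transporter, with means of 14.7 and 3.05 CPM. The other SLC2A13 ID, ENSDARG00000087867, stayed below 10 CPM, with a ratio of 0.215 and its highest group mean, 7.47 CPM, in tbx5 GFP-negative cells. The remaining 8 were SLC2A6, SLC2A2, slc2a3b, SLC2A12, SLC2A10, slc2a3a and both SLC2A1 IDs. The SLC2A1 ID ENSDARG00000007412, related to the widespread glucose transporter, had a ratio of 2.47 and its highest group mean, 82.7 CPM, in hand2 GFP-positive cells.

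Of the 16 other SLC22 gene IDs, 4 reached 10 CPM, namely SLC22A23, SLC22A18, SLC22A31 and slc22a15, with ratios of 1.96, 1.35, 1.33 and 0.585. The nearest relatives by name were near 0: slc2a11a, slc2a11l, slc22a7b.1, slc22a7b.2 and slc22a7b.3 had highest group means of 1.17, 1.25, 2.78, 2.14 and 1.72 CPM. None of the 11 other SLC2 and 15 other SLC22 genes tested passed edgeR's test in any of the 7 comparisons. How the authors' counting treated reads shared among these relatives is not stated in the labels.

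**Figure D5:**
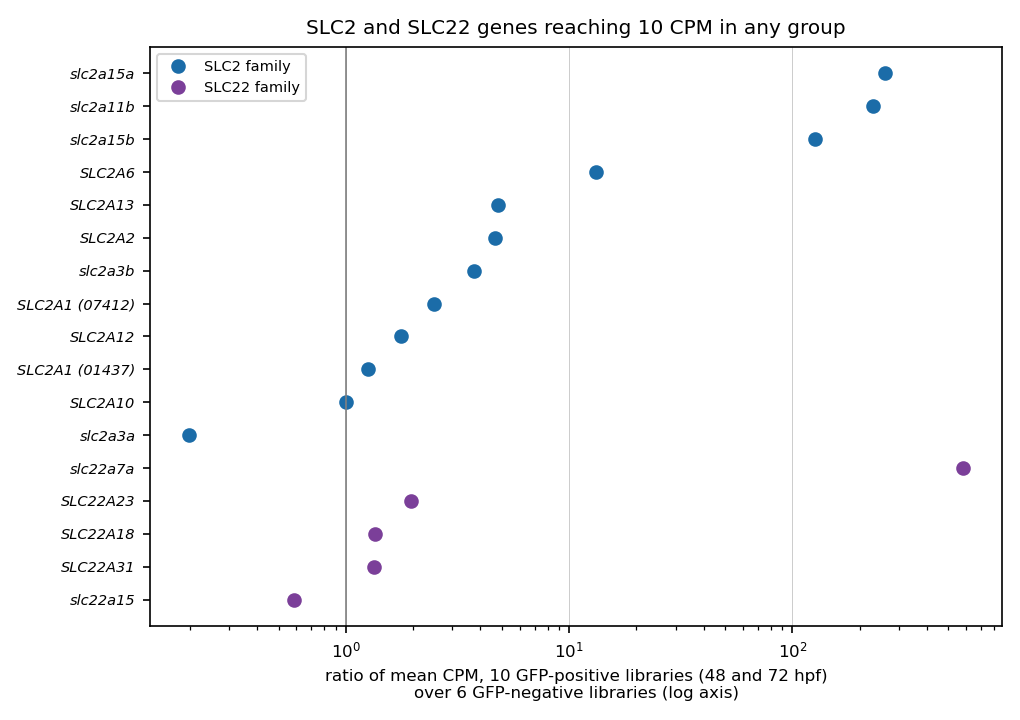
Ratio of mean CPM in the 10 GFP-positive libraries at 48 and 72 hpf to mean CPM in the 6 GFP-negative libraries, on a log axis, for SLC2 and SLC22 genes reaching 10 CPM in any group. Digits in brackets end the gene ID where a symbol is plotted with 2 IDs. The 4 transporters lay from 126 to 582 and the highest of the others, SLC2A6, at 13.2.

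Genes of pigment synthesis were described beside these transporters. The pteridine list shares gch2, aox5 and XDH with the xanthophore list, so those genes are not a separate line of evidence. All lists were chosen with earlier results of these data known. All 10 GFP-positive libraries at 48 and 72 hpf were above all 6 GFP-negative ones for 7 of 11 pteridine synthesis IDs, 7 of 11 purine synthesis IDs, 3 of 7 carotenoid handling IDs and 1 of 10 IDs of the pentose phosphate path and sugar phosphorylation. The share was 4.21% of all genes and 11.3% of genes averaging at least 10 CPM in those 10 libraries. In the 72 against 48 hpf comparison QDPR (ENSDARG00000040190), which recycles a pterin cofactor, fell by 2.86 ± 0.41 on the log2 scale with an edgeR adjusted p of 0.00554. ATIC, an enzyme of purine synthesis, fell by 2.49 ± 0.41 with an edgeR adjusted p of 0.0118. PGD, a dehydrogenase of the pentose phosphate path, fell by 1.89 ± 0.30 with an edgeR adjusted p of 0.00892. These were 1 of 10 tested pteridine, 1 of 11 purine and 1 of 10 pentose phosphate IDs, and none of the 6 tested carotenoid IDs passed. The median log2 fold change was -1.45, -1.70, 0.13 and -0.25 in those lists and 0 over all genes. In the genotype comparisons no gene of these 4 lists passed.

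Markers of other cells were counted the same way. None of 8 hepatocyte IDs had all 10 GFP-positive libraries above all 6 GFP-negative libraries, nor did any of 11 kidney tubule IDs. The hepatocyte sum was 204 to 2149 CPM in the 8 GFP-positive libraries of 72 hpf and 1.46 to 181 CPM in the GFP-negative ones. These ranges did not overlap, but the 48 hpf pair, at 75.8 and 89.8 CPM, lay within the GFP-negative range. By background the hepatocyte sum was 204 and 209 CPM in gata5, 1276 and 2149 CPM in tbx5 and 409 and 556 CPM in hand2. Its part in the transporter levels was not tested. For gata5 over wild type 2 of the 8 passed edgeR's test, against 0.105% of all tested genes. They were tfa, encoding transferrin, which fell by 2.27 ± 0.29 on the log2 scale (edgeR adjusted p 0.00484), and serpina1. The latter encodes a serine protease inhibitor and fell by 2.20 ± 0.37 (edgeR adjusted p 0.0398). For gata5 over tbx5 2 of the 8 were lower, against 0.0379%, and for tbx5 over hand2 1 was higher, against 0.00421%. For 72 against 48 hpf 1 of 7 tested iridophore IDs was lower, against 0.488%. In the count of all 10 libraries above all 6, cardiomyocyte IDs had 4 of 7 (myh6, TNNT2, nppa and cmlc1) and macrophage IDs 5 of 14. Melanophore IDs had 3 of 11, iridophore IDs 2 of 8 and neural crest IDs 1 of 6 (SOX10). The melanophore sum was 1419 and 1606 CPM at 48 hpf and 478 to 1008 CPM at 72 hpf. Its largest part was TYR, with a 48 hpf mean of 932 CPM. The ratio of the GFP-positive to the GFP-negative mean was 7.27 to 26.5 for TYR, both MITF IDs, SLC45A2 and trpm1b. For DCT, pmela, both TYRP1 IDs, SLC24A5 and OCA2 it was 0.515 to 0.925. The GFP-positive means took libraries of 48 and 72 hpf only, but the GFP-negative means also took the 24 hpf library. Each of the IDs at 0.515 to 0.925 had its highest GFP-negative level in that library. For pmela it read 84.1 CPM, where the GFP-negative mean was 29.6 CPM. Ratios of these IDs without that library were not computed, so lower levels in GFP-positive cells at matched stages are not shown. The part of the melanophore list in the transporter levels was not tested.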

How the data were processed

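The authors deposited whole-number counts per Ensembl gene ID and library, without normalization, and regularized-log values on the log2 scale for the same libraries. The submitters' processing notes list Trimmomatic 0.36, STAR 2.5, SAMtools 1.4, DESeq2 and genome build GRCz10; how reads were counted, on which annotation release and with what strandedness is not given in the sources used here. RNA came from sorted cells and libraries from a low-input kit, per the labels.

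Counts of the 12 GFP-positive libraries were fitted as 6 groups with edgeR 4.0.16 (R 4.3.3; TMM scaling; filterByExpr with a minimum count of 10 and minimum total of 15; robust quasi-likelihood), with Benjamini-Hochberg adjustment over all 23767 genes and calls at 0.05. Each SE printed with an edgeR log2 fold change is its absolute value divided by the square root of the F statistic of that test. No 2 libraries held identical counts. Depth limits low values: 3 counts is the floor, and intervals are at 95%.

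The transporters and all gene lists were chosen with earlier results of these data known. Of the list names, 8 had no matching gene ID. Symbols came from a table that named 24555 of the 28298 IDs. Genes named beyond the 4 were other SLC2 and SLC22 genes averaging at least 10 CPM in a group, the 5 closest profiles per transporter, and list members with the largest change; slc2a4rg, which is no transporter, was left out. Named after their values were seen were the relatives below 10 CPM, slc23a4 and the hepatocyte genes that passed. The alternatives were RLE and total-count scaling, no filter, DESeq2 1.42.0, limma 3.58.1 on the regularized-log values, a fit of all 18 libraries, a replicate block and leaving out each library; leaving out the 24 hpf GFP-negative library was added after seeing the data.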

Additional observations from a re-analysis of the deposited data

Results flagged for a closer look

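For slc2a15a the GFP-positive mean was below the GFP-negative library at 24 hpf in wild type, with a log2 ratio of -0.58, and above it in the other 5 conditions. For slc22a7a the log2 ratio at 24 hpf was -2.08, again below the GFP-negative library there and above it in the other 5 conditions. Both GFP-positive libraries lay on the same side in every condition. With a single GFP-negative library per condition the difference between conditions was not tested.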

How the results depend on the processing

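For 72 against 48 hpf, 0 of the 4 transporters passed in the main fit, 3 without the filter, and 1 each in the fit of all 18 libraries, in DESeq2 and in limma; leaving out each library gave 0 to 1. Over all genes the count was 116 in the main fit, 1022 without the filter, 1315 in DESeq2, 342 in limma, 859 without the first and 173 without the second wild-type 72 hpf library, and 55 without the second 48 hpf library. In the other 6 comparisons no transporter passed under any alternative. Over all genes, against main counts of 25, 11 and 12 for gata5, tbx5 and hand2 over wild type, 514, 407 and 507 passed without the filter, 990, 711 and 802 in DESeq2, 123, 17 and 59 in limma, 43, 28 and 61 with all 18 libraries, and 633, 539 and 604 without the first wild-type 72 hpf library. Against 9, 2 and 1 for gata5 over tbx5, gata5 over hand2 and tbx5 over hand2, 350, 483 and 174 passed without the filter, 286, 262 and 59 in DESeq2, 29, 14 and 3 in limma, and 19, 6 and 7 with all 18 libraries. Leaving out each library gave 18 to 633, 5 to 539, 14 to 604, 11 to 25, 3 to 55 and 0 to 7 genes in these 6 comparisons, in the same order. The cause was not tested.

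Deviations of libraries with the same replicate number were little correlated between groups, from -0.0537 to 0.0441 over 15 pairs of groups. The labels do not say how replicates were made, and such correlations cannot settle whether replicate numbers share an origin. With the replicate number as a block 0 of the 4 transporters passed in each comparison, and 92 genes in all for 72 against 48 hpf.

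Log2 fold changes changed sign for slc2a11b in gata5 over wild type (-0.0797, total-count scaling) and slc2a15b in gata5 over tbx5 (-0.182, total-count scaling). In gata5 over hand2 slc2a11b was 0.0258 and slc2a15a 0.0306 with RLE scaling, and 0.0258 and 0.0307 in DESeq2. In tbx5 over hand2 slc2a15a was 0.0320 with RLE scaling and in DESeq2, and 0.0445 with total-count scaling.

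Leaving out each library in turn, the sign also changed in some comparisons. In gata5 over wild type the range was -0.509 to 0.794 for slc2a11b, -0.0666 to 0.935 for slc2a15a and -0.336 to 1.08 for slc2a15b. In hand2 over wild type the range was -0.0941 to 0.877 for slc2a11b, -0.237 to 0.766 for slc2a15b and -0.0849 to 0.581 for slc22a7a. In gata5 over tbx5 the range was -0.961 to 0.31 for slc2a11b, -0.622 to 0.397 for slc2a15a, -0.804 to 0.592 for slc2a15b and -0.117 to 0.703 for slc22a7a. In gata5 over hand2 the range was -0.823 to 0.448 for slc2a11b, -0.632 to 0.369 for slc2a15a and -0.517 to 0.879 for slc2a15b. In tbx5 over hand2 the range was -0.443 to 0.321 for slc2a15a, -0.183 to 0.398 for slc2a11b, -0.18 to 0.638 for slc2a15b and -0.175 to 0.521 for slc22a7a.

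Among the described log2 ratios of GFP-positive to GFP-negative, slc2a11b at 24 hpf was 0.02 in the main scaling, -0.000254 with RLE and -0.0409 with total-count scaling. With total-count scaling the 48 hpf ratios were 9.34 for slc2a11b, 10.4 for slc2a15a, 9.88 for slc2a15b and 9.30 for slc22a7a, and the hand2 ratios 9.81, 7.82, 7.78 and 8.81. It gave 11.7 for slc2a15a and 9.92 for slc22a7a in gata5, and 13.7 for slc22a7a in wild type at 72 hpf. RLE scaling gave 10.1 for slc2a11b and 8.07 for slc2a15b in hand2, and 9.81 for slc22a7a at 48 hpf. For 48 over 24 hpf, total-count scaling gave 6.94 for slc2a15a and 9.42 for slc22a7a. The remaining 38 of these values moved by less than the replicate SD. So did 16 with a library left out, but that SD came from the same pairs of libraries. Staying within it was therefore nearly fixed in advance and says nothing on stability. The SD at 24 hpf was itself wide: without each 24 hpf library in turn the 48 over 24 hpf value was 4.91 and 7.60 for slc2a15b and 6.38 and 7.51 for slc2a11b.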
